A study of Mus musculus with 12 samples.

Results

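Toll-like receptors are pattern-recognition receptors of innate immunity, and their RNA was followed here through the lumbar spinal cord of healthy mice and of mice of a model of amyotrophic lateral sclerosis (ALS), a disease in which motor neurons degenerate. The 10 genes were the receptors Tlr1, Tlr2, Tlr3, Tlr4, Tlr6, Tlr7, Tlr9 and Tlr13, the co-receptor Cd14 and the adaptor Myd88. They were chosen by name, with earlier results of these data known, among 33906 mouse gene identifiers. Of these identifiers 18119 held enough reads to be tested. All 10 genes were among those tested.

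Poly(A) RNA was sequenced from 12 cords, 3 mice in each of 4 groups. Group H was made up of wild-type, healthy animals (H1, H2, H4). The other 3 groups were ALS model mice given phosphate-buffered saline (PBS) in group P (P66, P67 and P74), manganese-doped carbon dots in group C (C79, C84 and C85) or edaravone in group E (E75, E77 and E90). The carbon dots are particles whose activity resembles superoxide dismutase, as the series title has it, and edaravone scavenges radicals and is a drug for ALS. Group E was read as edaravone by elimination, since the series text lists a code E but describes edaravone under a code D. The sources used here do not give the transgene or mutation of the model, the strain, sex or age of the mice, or the doses. The wild-type mice are not described as having received PBS, so genotype and PBS feeding cannot be told apart between P and H. Values are FPKM, which is the reads of a gene per kilobase of exon, scaled to the reads of the library. One read in a gene of 1 kb was worth 0.0542 to 0.0643 FPKM, and the reads recovered from the tables summed to 16.8 to 19.8 M per library. The cord-defining neuronal RNA was present in every library, with Snap25 at 242 to 427 FPKM and the motor neuron gene Chat at 3.41 to 16.6 FPKM. Muscle RNA was present in some libraries, with the muscle actin Acta1 at 796 FPKM in H1. Erythroid RNA also differed, with 5 markers summing to 402 to 2577 FPKM in H and 128 to 307 in P. The sums were 205 to 388 FPKM in C and 107 to 266 in E. Of 5 tested Schwann cell markers 4 were higher and 1 lower in E against H in the test described below, beside 11.0% of all tested genes higher. The part of these tissues in the results was not tested. The cords also differed in RNA that marks position along the cord, taken as the mean log2(FPKM + 1) of 7 caudal Hox genes. This mean was 2.87, 3.19 and 3.38 in E75, E77 and E90. It was 2.17, 1.13 and 2.05 in C79, C84 and C85, and 2.50, 2.13 and 0.819 in H1, H2 and H4. Every C and every H cord thus lay below every E cord. In P66, P67 and P74 it was 1.49, 2.86 and 3.21. H4, P66 and C84 were each the lowest of their group. None of the 7 passed in the group comparisons below, and the part of cord position in the results was not tested.

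In the nervous system these receptors are best known from microglia, the resident macrophages. Tlr2 pairs with Tlr1 or Tlr6 at the cell surface to bind bacterial lipopeptides. Tlr4 binds lipopolysaccharide there, helped by Cd14, which passes ligands to several receptors. Tlr3, Tlr7, Tlr9 and Tlr13 sit in endosomes and read nucleic acids, namely double-stranded RNA, single-stranded RNA, unmethylated CpG DNA and bacterial ribosomal RNA. All of these receptors except Tlr3 signal through Myd88, which recruits kinases that activate NF-kB. Tlr3 signals through the adaptor Ticam1 (also called TRIF), and Tlr4 uses both adaptors.

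Genomic sequence upstream of the transcription start is shown for 4 of the 5 receptors in which a short motif was found. The letters can thus be set beside the values that follow. Tlr6 holds the motif too and is not shown. The RNA of all 5 rose in the ALS model, as did that of the other members. The sequences are RefSeq windows on GRCm38.p6, cut to the bases that lie outside every exon of GENCODE M21 and written 5′ to 3′ on the strand of the gene. Capitals mark AGGAAG, read on either strand (as CTTCCT on the other), which is the core of sites for ETS factors such as Spi1 (PU.1), and in Tlr2 also matches to the NF-kB consensus.
Tlr2: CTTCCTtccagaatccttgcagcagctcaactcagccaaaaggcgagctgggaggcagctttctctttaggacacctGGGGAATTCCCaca
Tlr1: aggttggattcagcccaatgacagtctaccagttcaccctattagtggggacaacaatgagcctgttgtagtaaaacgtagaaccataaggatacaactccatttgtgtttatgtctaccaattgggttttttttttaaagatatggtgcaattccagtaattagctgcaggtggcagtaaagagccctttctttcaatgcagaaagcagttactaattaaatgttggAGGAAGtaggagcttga
Tlr13: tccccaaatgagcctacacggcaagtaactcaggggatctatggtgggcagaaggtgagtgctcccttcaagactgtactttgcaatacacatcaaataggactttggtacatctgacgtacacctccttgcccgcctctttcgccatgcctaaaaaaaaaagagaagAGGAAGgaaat
Tlr9: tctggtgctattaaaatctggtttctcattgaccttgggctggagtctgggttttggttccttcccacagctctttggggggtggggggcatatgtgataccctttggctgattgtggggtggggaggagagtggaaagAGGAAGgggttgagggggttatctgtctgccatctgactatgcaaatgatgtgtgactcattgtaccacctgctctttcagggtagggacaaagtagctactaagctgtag
The Tlr2 stretch is 91 bases at chr3:83841768-83841858 on the minus strand. The Tlr1 stretch is 245 bases at chr5:64933564-64933808 on the minus strand. That of Tlr13 is 179 bases at chrX:106143025-106143203, and that of Tlr9 is 250 bases at chr9:106222348-106222597, both on the plus strand.

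RefSeq windows of 250 bases before the start were used for 7 of the 10 genes, 9 windows in all because Tlr1 and Tlr6 have a second start. Tlr4 and Tlr7 had no window. Cd14 was not searched, because chromosome 18 was left out for the 10 genes, though not for the mouse windows they are set against. AGGAAG occurred in 5 of these 9 windows, 1 each of Tlr1, Tlr2, Tlr6, Tlr9 and Tlr13, and in 29.5% of 32851 mouse windows of the same length. The longer GAGGAAG, which contains it, occurred in 3 of the 9 windows (Tlr1, Tlr9 and Tlr13) and in 10.6% of all windows. The NF-kB consensus matched in Tlr2 and Tlr3, against 7.25% of all windows. The Tlr3 match lies in the part of its window, 178 of 250 bases, that falls in annotated exons. In Tlr2 its 3 matches overlap each other and lie apart from the AGGAAG. Motifs were sought on both strands and were chosen with the sequences in view, so a match is a description of these letters and no evidence of binding.

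All 10 genes were higher in the PBS-treated ALS cords than in healthy cords, and no P library overlapped an H library for any of them. Differences are in log2(FPKM + 1) and are given ± standard error from a limma model of all genes, with Benjamini-Hochberg adjustment and 3 mice per group. Of all tested genes, 12.2% passed as higher in this comparison and 26.4% were higher without overlap. Because the 10 genes were chosen with earlier results of these data known, their count beside these shares is a description only. The median difference of the 10 genes was 1.16, beside 0.07 over all tested genes. Because 1 is added before the logarithm, the differences of low genes such as Tlr4 and Tlr6 are smaller than the ratios of their FPKM means.

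**Figure D1:**
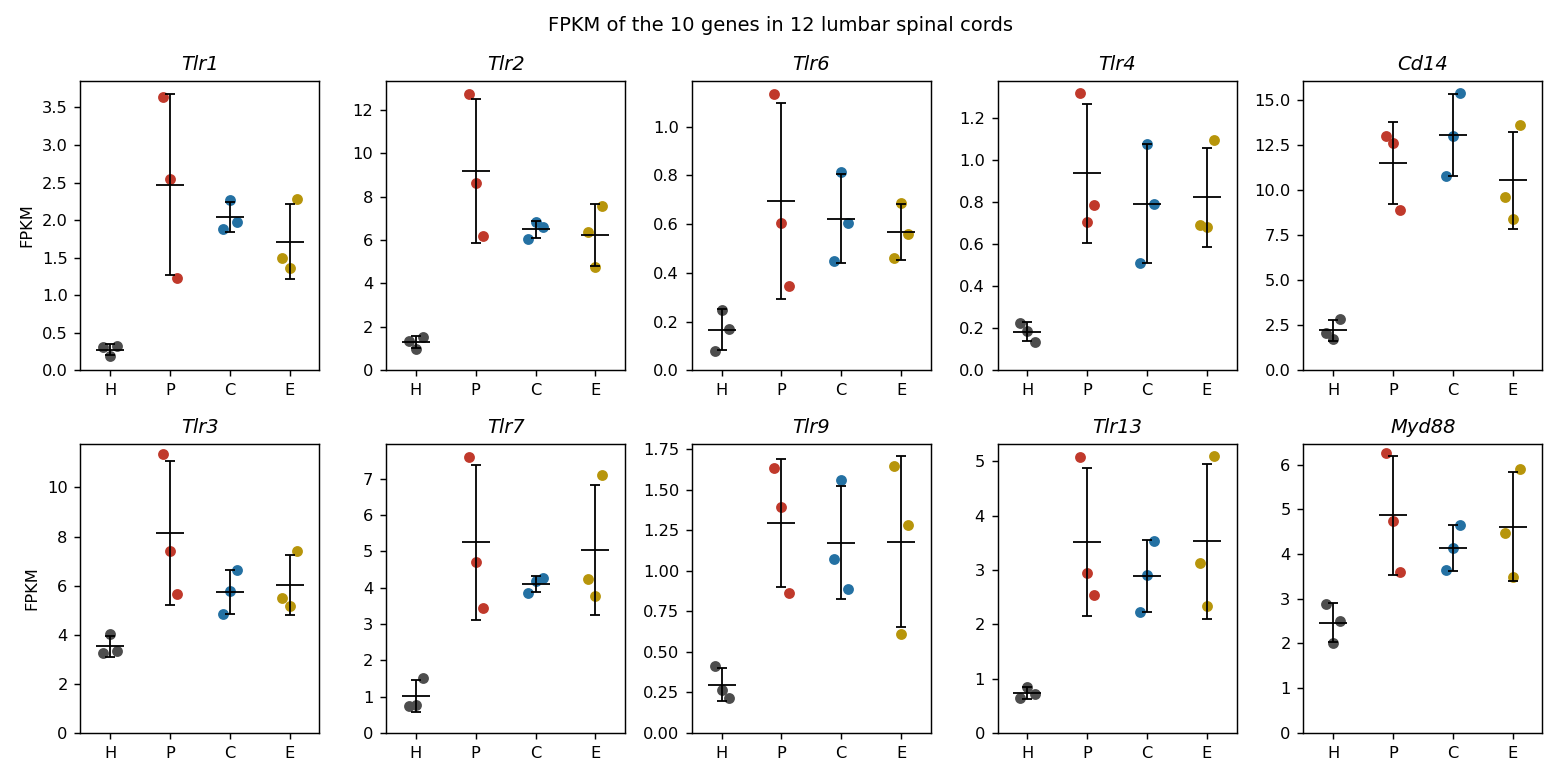
FPKM of each of the 10 genes (vertical axis, 1 scale per gene starting at 0) in healthy (H), PBS-treated ALS (P), carbon-dot-treated ALS (C) and edaravone-group ALS (E) cords; points are mice, long bars are means and whiskers are SD, n = 3. In each panel every ALS model point lies above every healthy point, while the P, C and E points interleave.

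Among the surface receptors, Tlr2 (ENSMUSG00000027995, chr3:83836272-83841767) had the largest difference in log2(FPKM + 1). Its level was 1.36, 0.977 and 1.52 FPKM in H1, H2 and H4, against 12.8, 8.62 and 6.19 FPKM in P66, P67 and P74. The lowest P library thus stood well clear of the highest healthy one, and the difference was 2.11 ± 0.21 (adjusted p = 0.000267), a 7.14-fold ratio of means. Its partner Tlr1 (ENSMUSG00000044827, chr5:64924679-64933563) had the largest ratio of means, 8.97-fold. Tlr1 measured 0.303, 0.196 and 0.328 FPKM in the healthy cords and 3.64, 2.55 and 1.23 FPKM in the P cords. These groups were separate too, and the log2 difference was 1.38 ± 0.22 (adjusted p = 0.00263). The healthy values of Tlr1 rest on 17, 12 and 19 reads, so the ratio is imprecise. The order of this pair depends on the scale: limma-voom on the recovered reads gave 3.04 for Tlr1 and 2.80 for Tlr2.

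Tlr6 (ENSMUSG00000051498, chr5:64952031-64960097), the other partner of Tlr2, was the lowest of the 10 genes. It gave 0.0799, 0.249 and 0.171 FPKM in H and 1.14, 0.603 and 0.347 FPKM in P. The healthy values rest on 5, 17 and 11 reads, and the highest of them (H2) came near the lowest P library (P74, 22 reads). Its difference of 0.52 ± 0.15 passed the test by a small margin (adjusted p = 0.0364) and was lost in 8 of 13 alternative settings. Tlr1 and Tlr6 neighbour each other on chromosome 5 and are near-copies in part: 13.6% of the 50-base stretches of Tlr1 transcripts also occur in Tlr6, and 12.3% of those of Tlr6 occur in Tlr1. The sources used here do not say how reads of the shared stretches were counted, so the split between this pair is uncertain.

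Tlr4 (ENSMUSG00000039005, chr4:66827584-66930284) was also low. It stood at 0.225, 0.187 and 0.135 FPKM in H and at 1.31, 0.705 and 0.783 FPKM in P, with no overlap. The log2 difference was 0.70 ± 0.14 (adjusted p = 0.00953) and the ratio of means 5.12-fold. Cd14 (ENSMUSG00000051439, chr18:36725067-36726798), which passes lipopolysaccharide on to Tlr4, was several times more abundant than the receptor in every group. Cd14 gave 2.05, 1.74 and 2.83 FPKM in H and 12.98, 12.6 and 8.87 FPKM in P. Its P libraries were closer to each other than those of most receptors, and the difference of 1.96 ± 0.20 (adjusted p = 0.000268) was second to that of Tlr2 on this scale. With a pseudocount of 0.1 and with limma-voom it came after both Tlr2 and Tlr1, at 2.34 and 2.40.

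Of the endosomal receptors, Tlr7 (ENSMUSG00000044583, chrX:167304929-167330558), the sensor of single-stranded RNA, rose most. It went from 0.730, 0.775 and 1.52 FPKM in H to 7.61, 4.70 and 3.44 FPKM in P, a difference of 1.61 ± 0.25 (adjusted p = 0.00231). H4 stood apart from the other healthy cords for this gene but stayed below every P cord. Tlr13 (ENSMUSG00000033777, chrX:106143204-106160493), the sensor of bacterial ribosomal RNA, measured 0.642, 0.854 and 0.722 FPKM in H and 5.08, 2.95 and 2.53 FPKM in P. Its difference was 1.34 ± 0.23 (adjusted p = 0.0045).

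Tlr9 (ENSMUSG00000045322, chr9:106222598-106226883), the CpG DNA sensor, stayed under 2 FPKM throughout. It gave 0.411, 0.267 and 0.216 FPKM in H and 1.63, 1.39 and 0.862 FPKM in P, a difference of 0.81 ± 0.19 (adjusted p = 0.0165). Tlr3 (ENSMUSG00000031639, chr8:45395665-45411080), the sensor of double-stranded RNA, was the most abundant receptor of the healthy cord and changed by the smallest ratio among the receptors. Its healthy values of 3.24, 4.01 and 3.32 FPKM compared with 11.4, 7.39 and 5.67 FPKM in P. The ratio of means was 2.31-fold and the log2 difference 0.97 ± 0.20 (adjusted p = 0.00953). The exons of Tlr3 overlap those of the opposite-strand model Gm45542 over 381 bases, 7.32% of their length, and whether counting used the strand is not stated in the sources used here.

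The adaptor Myd88 (ENSMUSG00000032508, chr9:119335934-119341411) changed by the smallest ratio of all 10 genes, 1.97-fold. It stood at 2.89, 2.01 and 2.49 FPKM in H and at 6.26, 4.74 and 3.61 FPKM in P. The groups were separate, but P74 and H1 lay close together, and the difference was 0.74 ± 0.18 (adjusted p = 0.0219). Its exons overlap those of Acaa1a on the opposite strand over 290 bases, 11.3% of their length. The test of Myd88 was lost without H2, without P66 and without P67, and so was that of Tlr9. Without any 1 of these 3 libraries 7 of the 10 genes passed, and Tlr6 was the other one lost.

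For none of the 10 genes did the difference between a treatment group and the PBS group pass the test. In carbon-dot-treated cords, 0 genes passed the limma test and 0 had an unadjusted p under 0.05, with adjusted p from 0.536 to 0.954. Over all tested genes 0.00552% passed, which is 1 gene, and 17.1% did not overlap, beside 0 of the 10. The differences from P were negative for 9 of the 10 genes, from -0.40 for Tlr3 to 0.17 for Cd14, with a median of -0.15 beside -0.02 over all genes. P66, the highest P library for all 10 genes, carried much of that: without it 6 of the 10 differences changed sign from negative to positive.

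**Figure D2:**
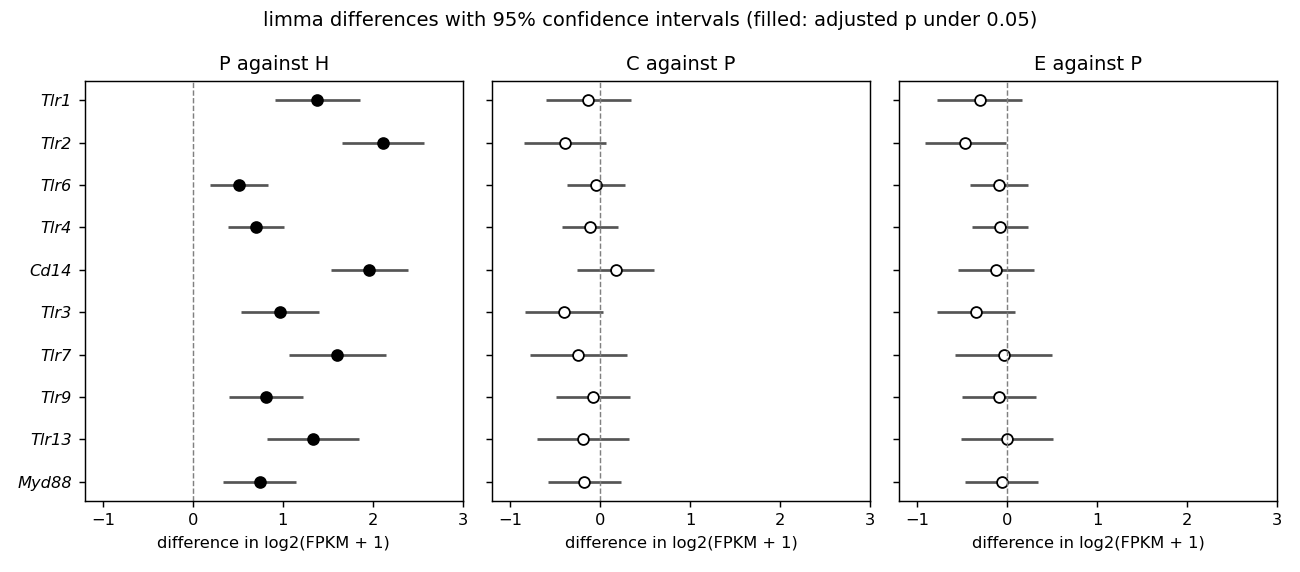
Differences in log2(FPKM + 1) of the 10 genes (horizontal axis) with 95% confidence intervals, 3 mice per group, in panels that set P against H, then C and E against P; filled points passed at an adjusted p of 0.05. All 10 points are filled and positive in the first panel, and none is filled in the other 2 panels, where the points lie between -0.46 and 0.17.

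Tlr2 and Tlr3 had the largest differences under carbon dots. Tlr2 measured 6.06, 6.82 and 6.62 FPKM in C79, C84 and C85, inside a narrow range whose top lay above P74 and below the other P libraries. Its difference from P was -0.39 ± 0.21 (limma adjusted p = 0.564), with a 95% interval of -0.85 to 0.06. Tlr3 measured 4.85, 5.76 and 6.63 FPKM, again overlapping P74 only, and its difference was -0.40 ± 0.20 (limma adjusted p = 0.536; interval -0.83 to 0.04). Cd14 alone had a higher mean than in P, at 10.8, 13.01 and 15.3 FPKM, with an interval of -0.25 to 0.60.

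The other 7 genes also overlapped the PBS group, and for Tlr4, Tlr6, Tlr9 and Tlr13 the highest C library lay above P67 as well as P74. Under carbon dots Tlr1 gave 1.88, 2.27 and 1.98 FPKM, Tlr4 0.511, 1.07 and 0.787, and Tlr6 0.448, 0.815 and 0.604. The endosomal Tlr7 gave 3.85, 4.19 and 4.27 FPKM, Tlr9 1.07, 1.56 and 0.888, and Tlr13 2.22, 2.91 and 3.54. Myd88 gave 3.63, 4.13 and 4.64 FPKM. C79 was the lowest of the 3 libraries for 9 of the 10 genes. The widest of the 10 intervals against P, that of Tlr7, ran from -0.78 to 0.30.

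In the edaravone group the picture against P was similar in its counts. All 10 differences were negative, from -0.46 for Tlr2 to -0.00 for Tlr13, and 0 of the 10 passed the limma test (adjusted p of at least 0.998). Over all genes 0% passed and 9.01% did not overlap, beside 0 of the 10. Tlr2 gave 6.37, 4.75 and 7.57 FPKM, and E90 and E75 lay above P74. It was the only one of the 10 with an unadjusted p under the threshold, at -0.46 ± 0.21 (limma, unadjusted p = 0.0462, adjusted p = 0.998). Cd14 gave 9.62, 8.39 and 13.6 FPKM, Tlr3 5.51, 5.16 and 7.40, and Myd88 4.47, 3.48 and 5.90. E90 was the highest library of the group for 8 genes and E77 the lowest for 9.

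The remaining receptors spread over much of the P range in this group. Tlr7 gave 4.24, 3.78 and 7.09 FPKM and Tlr13 3.14, 2.34 and 5.10, so that E90 nearly matched P66 for both. Tlr1 gave 1.50, 1.36 and 2.28 FPKM, Tlr4 0.691, 0.681 and 1.09, Tlr6 0.459, 0.687 and 0.560, and Tlr9 1.65, 0.608 and 1.28. Without P66, 6 of the 10 differences became positive here too. Between C and E, 0 of the 10 genes passed the limma test, 0 had an unadjusted p under 0.05 and 0 were free of overlap, beside 0.171% passing and 16.9% without overlap over all genes. The differences between C and E ran from -0.20 for Tlr7 to 0.30 for Cd14. The comparisons with P share the P libraries, so their signs are not independent of each other.

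Both treated groups stayed above the healthy cords for all 10 genes without overlap. In C against H, 7 genes passed the limma test, beside 7.25% of all tested genes higher and 22.7% higher without overlap. Cd14 was 2.13 ± 0.20 higher (adjusted p = 0.000289), Tlr2 1.72 ± 0.21 (adjusted p = 0.00101) and Tlr7 1.37 ± 0.25 (adjusted p = 0.00702). Tlr3, Tlr6 and Myd88 did not pass, with limma adjusted p of 0.0988, 0.0714 and 0.0799. The count fell to 4 without C85, and Tlr9 missed the threshold whichever of the 6 libraries was left out (limma adjusted p from 0.0601 to 0.115). In E against H, 8 genes passed, beside 11.0% of all tested genes higher and 24.9% higher without overlap, and Tlr3 and Tlr6 did not (limma adjusted p = 0.0586 and 0.0752). Cd14 was 1.84 ± 0.20 higher (adjusted p = 0.000412), Tlr2 1.65 ± 0.21 (adjusted p = 0.000941) and Tlr7 1.57 ± 0.25 (adjusted p = 0.00245). That count fell to 5 without H2 and to 5 without E90. The healthy libraries are shared by these comparisons and by P against H.

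The mix of receptors was not the same in healthy and ALS model cords. Summed over the 8 receptors, FPKM was 7.48 ± 0.467 (SD, n = 3) in H, 31.5 ± 11.9 in P, 23.9 ± 2.58 in C and 25.1 ± 6.65 in E. Tlr3 held 41.9 to 53.4% of this sum in the healthy cords, and 26.0 ± 0.798% in P, 24.0 ± 1.90% in C and 24.3 ± 2.05% in E. Tlr2 went the other way, from 17.2 ± 3.65% in H to 29.3 ± 0.600% in P, 27.3 ± 1.50% in C and 25.0 ± 1.88% in E. The share of Tlr1 was 3.69 ± 0.948% in H and 7.61 ± 1.56% in P. For these 3 shares P and H did not overlap, and the exact two-sided permutation p was 0.1, the smallest that 3 against 3 allows, in a family of 54 comparisons of shares and sums. No comparison in that family can reach 0.05. Shares add up to 100%, so a fall of one is tied to a rise of others.

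**Figure D3:**
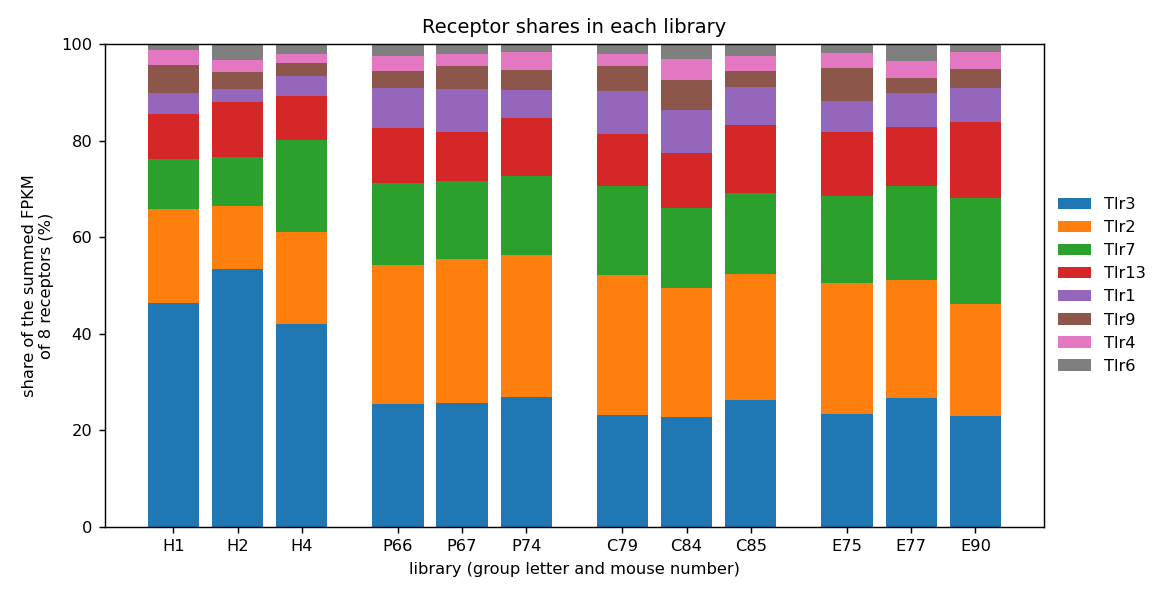
Share of each of the 8 receptors in their summed FPKM (vertical axis, percent) in each library (horizontal axis), stacked from Tlr3 at the bottom to Tlr6 at the top. Tlr3 fills 41.9 to 53.4% of the 3 healthy bars and 22.7 to 26.9% of the 9 ALS model bars.

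In order of level, Tlr3 led in all 3 healthy cords, and Tlr2 led in all 3 P cords, in C79 and C84, and in E75 and E90. Tlr3 and Tlr2 were close in the ALS model: in P66 Tlr2 held 28.6% and Tlr3 25.5%, and in C85 they held 26.1 and 26.2%. Tlr7 came next in all 9 ALS model libraries, followed by Tlr13. Tlr1, Tlr9, Tlr4 and Tlr6 made up the rest, in that order in P66, P67, P74, C79, C84, C85 and E90 and in other orders in E75, E77 and the healthy cords. Tlr7, Tlr13, Tlr9, Tlr4 and Tlr6 had overlapping shares in P and H. Between the ALS groups, E lay apart from P with a lower share of Tlr2 and higher shares of Tlr7 (19.8 ± 1.97% against 16.6 ± 0.457%) and Tlr13 (13.7 ± 1.86% against 11.2 ± 0.934%), each with an exact permutation p of 0.1. C lay apart from E with a higher share of Tlr1 (8.59 ± 0.665% against 6.82 ± 0.387%, exact permutation p = 0.1).

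Markers of microglia rose in the same comparison as the receptors. Of 15 microglial markers 14 passed as higher in P than in H (limma), beside 12.2% of all tested genes. Their median difference was 1.61, and Tmem119 did not pass. Their summed FPKM was 172 to 217 in H, 548 to 1145 in P, 677 to 896 in C and 506 to 821 in E. Mouse by mouse, the mean log2(FPKM + 1) of these markers was 5.29, 4.90 and 4.34 in P66, P67 and P74, the order that 9 of the 10 genes also followed. It was 4.64 in C79, below 4.92 in C84 and 4.86 in C85. In E, the lowest mean was that of E77 at 4.24, and those of E75 and E90 were 4.76 and 4.66. In whole tissue, more microglia and more RNA per microglial cell cannot be told apart.

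For other immune cells that can express these genes, a smaller part of the tested markers passed than for microglia. Of 8 tested markers of border and blood macrophages or monocytes 1 passed as higher in P against H (Ms4a7). That is near the 12.2% of all tested genes. In E against H 4 of the 8 passed as higher, beside 11.0% of all tested genes, and in C against H 0, beside 7.25%. Their summed FPKM was 1.14 to 3.11 in H, 2.80 to 6.67 in P, 4.97 to 7.34 in C and 5.63 to 11.9 in E. In P against H, neutrophil markers passed in 0 of 6, with sums of 19.2 to 24.3 in H and 13.5 to 30.5 in P. Among markers of B and dendritic cells 1 of 5 passed (Bst2, which also responds to interferon), and Ms4a1 and Xcr1 were among those with too few reads to be tested. Markers of T and NK cells passed in 2 of 4 (Cd8a and Trac). Astrocyte markers were higher in 6 of 8, with a median difference of 0.59, and Slc1a2 and Aldoc did not pass. The largest differences were 2.05 for Gfap and 1.73 for Aqp4. Summed FPKM of the astrocyte markers was 1237 to 1331 in H and 2166 to 3303 in P. Neuronal markers were lower in 5 of 6, beside 591 of the 18119 tested genes. The part of any of these cells in the receptor levels was not tested.

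Set against the summed FPKM of the 15 microglial markers, the 10 genes fell into unlike patterns. The log2 ratio of Tlr1 to the marker sum was 0.92 higher in P than in H and that of Tlr2 0.66 higher, without overlap. The ratio of Tlr3 was lower by -0.99 and that of Myd88 by -1.18, also without overlap. The marker sum itself was 172 to 217 in H and 548 to 1145 in P. A gene of unchanged level would therefore also show a lower ratio without overlap. The median difference in level over all tested genes was 0.07, so a lower ratio is not particular to Tlr3 and Myd88. The ratios of Tlr4, Tlr6, Tlr7, Tlr9, Tlr13 and Cd14 overlapped between P and H. The complement genes C1qa, C1qb and C1qc together gave 44.1 to 48.7% of the marker sum in H and 56.2 to 67.3% in the ALS model. With the other 12 markers as the measure, chosen after the values were seen, Tlr1 was 1.35 higher, Tlr2 1.08 higher, Tlr3 lower by -0.56 and Myd88 lower by -0.75, still without overlap. Tlr7 and Cd14 then stood 0.67 higher each without overlap, so their place depends on the markers taken. The exact permutation p of each separated ratio was 0.1, the smallest possible.

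**Figure D4:**
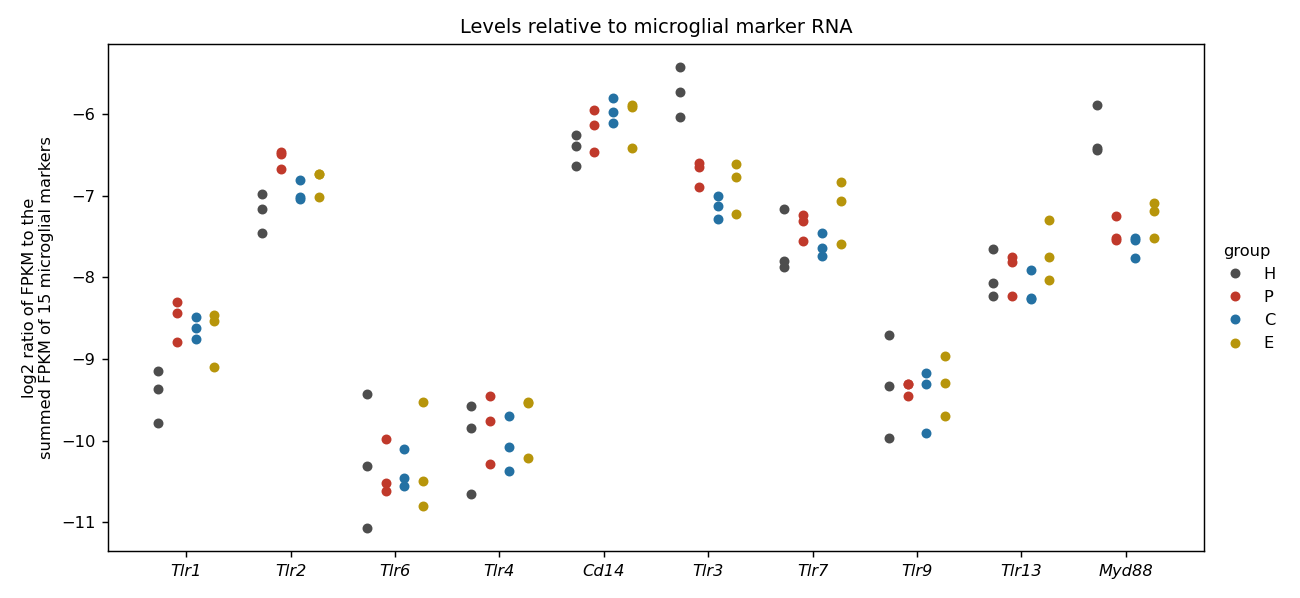
Log2 ratio of the FPKM of each gene to the summed FPKM of 15 microglial markers (vertical axis) for the 10 genes; each point is 1 mouse of group H, P, C or E. The healthy points of Tlr1 and Tlr2 lie below those of P, and the healthy points of Tlr3 and Myd88 lie above those of every ALS model group.

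Within the ALS model, the ratio to the 15 markers separated a few pairs of groups. Tlr2 was lower than in P by -0.41 in C and by -0.28 in E, and Tlr3 was lower than in P by -0.42 in C, without overlap (exact permutation p = 0.1 for each). For Myd88 the ratio was lower in C than in E by -0.34 (exact permutation p = 0.1). None of these genes passed the test of its own level in those comparisons. All of the 10 genes were compared in this way, so a few separations may arise without any effect. Over all tested genes, levels did not overlap for 17.1% in C against P, 9.01% in E against P and 16.9% in C against E. The ratio to the markers was not computed for all genes.

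The rest of the pathway rose in part between P and H, and 0 of its genes passed as lower. Among receptor partners and trafficking genes 6 of 11 passed as higher, with a median difference of 0.86. Cd180, a receptor-like protein that modulates Tlr4, was 2.36 ± 0.27 higher (adjusted p = 0.000564), its partner Ly86 2.24 ± 0.26 (adjusted p = 0.000569), and Ctss, a lysosomal protease, 2.46 ± 0.28 (adjusted p = 0.000569). A pair of genes of this list was picked after the values were seen. Unc93b1, which carries the nucleic acid receptors to endosomes, was 1.82 ± 0.22 higher (adjusted p = 0.000739), whereas Ly96 (MD-2), the subunit with which Tlr4 binds lipopolysaccharide, stood at 0.819 ± 0.124 FPKM in H and 1.33 ± 0.769 FPKM in P (limma adjusted p = 0.255).

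Adaptors other than Myd88 passed as higher in 4 of 6 (median 0.59). Ticam2, the bridge of Tlr4 to Ticam1, was 0.53 ± 0.09 higher (adjusted p = 0.00331), Ticam1, the adaptor of Tlr3, 0.66 ± 0.12 (adjusted p = 0.00638), and Pik3ap1, an adaptor to phosphoinositide 3-kinase, 1.61 ± 0.29 (adjusted p = 0.00514). Kinases and ubiquitin ligases passed in 8 of 17 (median 0.33). Tab2, a subunit of the kinase complex TAK1, was 0.71 ± 0.11 higher, Irak4, the first kinase recruited by Myd88, 0.79 ± 0.15, and the kinase Btk 0.99 ± 0.20. Among transcription factors 9 of 14 passed (median 0.55), led by the myeloid factors Irf8 (1.88 ± 0.23), Irf5 (1.35 ± 0.17) and Spi1 (1.56 ± 0.22). Spi1 is itself a factor that binds AGGAAG cores, and its part in the receptor levels was not tested.

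Target cytokines and chemokines passed as higher in 9 of 10 tested, out of 16 listed (median 0.93). Ccl3 went from 0.596 ± 0.113 FPKM in H to 16.1 ± 6.71 FPKM in P, Ccl4 from 0.146 ± 0.0551 to 6.21 ± 2.87 FPKM, and Il1a from 0.169 ± 0.154 to 1.33 ± 0.662 FPKM. The classical targets Il6, Il10, Il12b, Cxcl1, Cxcl2 and Ifnb1 held too few reads to be tested. Genes listed as negative regulators passed in 7 of 15 (median 0.22). Among them were Socs3 (1.70 ± 0.27), a suppressor of cytokine signalling, and Trim30a (1.51 ± 0.34). Nfkbiz (0.79 ± 0.12) passed too and is an atypical IkB protein that is not only an inhibitor. Endogenous ligands passed in 3 of 8, which were the matrix proteins Tnc (1.07 ± 0.24), Fn1 (1.24 ± 0.32) and Vcan (0.48 ± 0.14). Interleukin receptors that share Myd88 passed in 2 of 5, namely Il1r1 (1.10 ± 0.23) and Il1rl2 (0.52 ± 0.13). These counts stand beside the 12.2% of all genes that passed as higher, and several lists hold genes that microglia express. In C against P, E against P and C against E, 0 genes of these lists passed.

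Of the receptors left out of the 10, Tlr5, Tlr8 and Tlr12 were tested and none passed in P against H, and Tlr11 held too few reads. Tlr8, an endosomal receptor next to Tlr7 in kind, was chosen here after its values were seen. It averaged 0.0161 ± 0.0166 FPKM in H, 0.162 ± 0.0633 in P, 0.222 ± 0.125 in C and 0.783 ± 0.268 in E. All 3 E mice were above all other mice for Tlr8, and E against H passed (limma adjusted p = 0.0011), while E against P (adjusted p = 0.191) and C against E (adjusted p = 0.0776) did not. Markers of border and blood macrophages were also highest in E75 and E90, and their part in this was not tested.

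The genes with the profiles most like those of the leading members were sought over the 12 libraries, by the root-mean-square difference between centred log2(FPKM + 1) values. For Tlr2, whose own SD over the libraries was 0.883, these were Nckap1l (0.122), Ptpn6 (0.131) and Slc14a1 (0.135). For Cd14 (SD 0.930) they were Slc11a1 (0.173), Tmem176a (0.184) and Cyth4 (0.190). For Tlr7 (SD 0.754) they were Ctsc (0.129), Lyn (0.135) and Abca1 (0.165). The step between healthy and ALS model libraries makes up much of each profile, and many genes share it.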

How the data were processed

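Poly(A) RNA of 12 lumbar cords was sequenced. The authors deposited 1 table of values per group, with no unit named, and the values were read as FPKM. Values times GENCODE M21 exon length were whole reads within 0.02 for 95.2 to 95.6% of values worth up to 50 reads. Whole reads show scaling by exon length and do not by themselves separate FPKM from other length-scaled units. Reads recovered as FPKM summed to 106.6 to 108.0% of the total that this scaling implies. For Tlr13 and Cd14 the recovered reads were not whole. HISAT2, featureCounts, cutadapt and GRCm38 are named in the submitters' processing notes, with settings not given in the sources used here.

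Of 33906 identifiers 33829 matched a GENCODE M21 name. Genes with at least 10 recovered reads in at least 3 libraries and 15 in all were tested (18119). The model was limma 3.58.1 (R 4.3.3) on log2(FPKM + 1), with 1 mean per group over 12 libraries, trended robust moderation, Benjamini-Hochberg adjustment within a comparison, two-sided tests and a threshold of 0.05. Exact permutation tests were used for shares and ratios. The code was tested on simulated data. Members and lists were chosen with earlier results of these data known. All members were named, plus up to 3 genes of smallest adjusted p per pathway list, and the 3 nearest profiles of the 3 members that changed most. Alternatives covered pseudocounts, filters, limma-voom on recovered reads, median-ratio scaling, 2-group fits and leaving out each library. No mouse number is shared between groups. A few marker genes are not reported by name.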

Additional observations from a re-analysis of the deposited data

How the results depend on the processing

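Precision is limited by 3 mice per group and, for Tlr1, Tlr4, Tlr6 and Tlr9 in healthy cords, by few reads. The size of a difference depends on the scale for low genes: in P against H limma-voom on recovered reads gave 3.04 for Tlr1, 2.31 for Tlr4, 1.98 for Tlr6, 2.11 for Tlr9 and 2.19 for Tlr13, against 1.38, 0.70, 0.52, 0.81 and 1.34 on log2(FPKM + 1). All 10 genes stayed higher in that comparison in all 13 alternatives, and 7 to 10 passed when 1 library was left out, 8 without a filter, and 9 with an FPKM filter or with only these groups in the fit. The share of calls in the higher direction over all genes fell from 78.95 to 53.16% under median-ratio scaling, with all 10 genes still called (C against H 87.24 to 66.93% with 7 called, E against H 83.7 to 58.37% with 7 called). Over all genes, P against H gave 2807 calls, 1444 without a filter and 1471 with 2 groups. The corresponding counts were 1505, 736 and 1585 in C against H, and 2392, 1469 and 1750 in E against H. C against E gave 31, 4 and 4, and 17 with a pseudocount of 0.1. Leaving out 1 library moved these totals to 933 (without P66) to 3535 (without P74) in P against H, 567 (without H2) to 1915 (without H4) in C against H, 1159 (without E90) to 2230 (without H4) in E against H, and 0 (without C79) to 56 (without E77) in C against E. Without C84, C against E gave 45 calls, 33 higher and 12 lower, against 9 and 22. C against P gave 1, with 0 to 5 elsewhere, and E against P 0, with 0 to 3.

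Leaving out 1 library gave 4 to 6 passing genes in C against H (4 without C85) and 5 to 8 in E against H (5 without H2 or E90). Without a filter 5 and 6 passed, and with only 2 groups in the fit 10 and 10. Every sign change came from leaving out a library, and none of those values passed. In C against P the ranges were -0.42 to 0.11 for Tlr1, -0.22 to 0.026 for Tlr4, -0.20 to 0.14 for Tlr6, -0.46 to 0.018 for Tlr7, -0.22 to 0.030 for Tlr9 and -0.35 to 0.045 for Tlr13. In E against P they were -0.18 to 0.056 for Tlr4, -0.24 to 0.092 for Tlr6, -0.27 to 0.22 for Tlr7, -0.25 to 0.11 for Tlr9, -0.24 to 0.23 for Tlr13, -0.30 to 0.012 for Cd14 and -0.22 to 0.10 for Myd88. In C against E they were -0.085 to 0.20 for Tlr2, -0.15 to 0.082 for Tlr3, -0.14 to 0.087 for Tlr4, -0.039 to 0.12 for Tlr6, -0.35 to 0.027 for Tlr7, -0.19 to 0.17 for Tlr9, -0.38 to 0.051 for Tlr13 and -0.26 to 0.048 for Myd88. No paired analysis was possible because the groups share no mouse number.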
